A study of Canis lupus familiaris with 29 samples.

Results

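The genes described here are interferon-stimulated genes of the dog, taken as 40 named members and read from RNA-seq expression values of MDCKII cells. A member was the entry of that gene name in the expression files, and where a name repeated, the entry with the higher mean. Of the 40, 36 were found among the 24223 genes in the files, and STAT2, USP18, HERC5 and SP110 were not analysed here. XAF1, a pro-apoptotic interferon-stimulated gene, was listed at 0 in all but 2 libraries, where it stood at 0.0934 and 0.0282 FPKM, and was not tested. The other 35 passed a filter of at least 1 FPKM in at least 2 libraries. Several passed it only through the groups in which they were high: OASL through the AVL9-KD monolayers alone, PSMB8 through the AVL9-KD groups alone, MX2 through 3 of the 13 groups, IFIT1 through 5, CXCL10 through 6 and IFIT2 through 7. Where a comparison includes such a group, the test of that gene depends in part on the high values it measures.

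Interferons are secreted proteins that bind receptors on the cell surface and, through JAK kinases, bring a transcription factor complex that holds IRF9 to the promoters of a shared set of genes. The products of these genes sense viral RNA, degrade or sequester it, block translation, tag proteins with ISG15 and raise antigen presentation. Epithelial cells make many of them at a resting level without infection, partly through IRF1, and the genes for the RNA sensors and for IRF7 are themselves interferon-stimulated.

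MDCKII is a line of dog kidney epithelial cells that forms hollow cysts in 3D culture and polarised sheets on filters. The series examined mRNA during that morphogenesis in 29 libraries of 13 groups, all from this line and from the same stranded mRNA kit. Values were FPKM (fragments per kilobase of transcript, scaled to the mapped fragments of the library), as the authors deposited them, so they are corrected for transcript length. Wild-type cells taken for seeding gave the day 0 group (n = 4). Cysts of wild-type cells on matrigel gave 2 libraries at each of 24 h, day 3, day 5 and day 8, and 1 library at day 14. Wild-type 2D cultures grown past confluence on transwell inserts were collected at day 4 and day 11 (n = 3 each). Cells with the genotype DENND5A-KD, numbered 1 and 2, were collected at day 0 and as 2D cultures at day 4 and day 7 (1 library of each number at each time). Cells with the genotype AVL9-KD, numbered 1 and 4, were collected at day 0 and as 2D culture at day 4 in the same way. DENND5A and AVL9 encode DENN domain proteins, a family that acts on Rab GTPases. The numbers are called lines below; the labels do not say whether they are clones, hairpins or guides, and no line carrying a control construct is among the samples. Nor is it stated that replicates came from separate cultures, and the p-values therefore reflect only how far these libraries scatter, which may be technical.

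Differences are on the log2(FPKM + 1) scale, which understates the change of genes of low level, and are given with the standard error and the Benjamini-Hochberg adjusted p of a limma fit over 11774 genes and all 29 libraries. A gene is said to have risen or fallen, or to be called, where that adjusted p was under 0.05. Part of the genes described library by library were chosen among called genes whose groups did not overlap, so for those the lack of overlap comes from the choice and supports nothing. Relative depth, read from the smallest steps between low FPKM values, ran from 0.444 to 1.66 of a reference library, and absolute depth is unknown. In the labelled knockdowns, DENND5A was 1.88 and 2.02 FPKM at day 0 in the DENND5A-KD lines, against 4.98 to 6.89 in the 4 wild-type libraries, and AVL9 was 5.70 and 7.21 FPKM in the AVL9-KD lines, against 22.2 to 23.7. Both targets were also lower in 2D culture at day 4, with DENND5A down by 1.28 ± 0.13 (adjusted p 4.63e-06) and AVL9 by 1.91 ± 0.15 (adjusted p 8.19e-08). Kidney epithelial markers (8 of 10 found, without KRT8 and KRT18) summed to between 612 and 1006 FPKM. Of these, EPCAM was 224.9 to 378.5 FPKM and CDH1 60.2 to 332.5, while CDH16 ran from 0.0345 to 68.6 and CLDN2 from 0 to 163. Leukocyte markers (11 of 12 found) were all under 1 FPKM in every library, CD3E, CD3G, MS4A1, ITGAX and TYROBP were listed at 0 throughout, and the list summed to at most 1.52 FPKM. Of the markers of plasmacytoid dendritic cells, a main source of interferon, 4 of 6 were found, without CLEC4C and LILRA4. Those found summed to at most 2.29 FPKM with IL3RA and GZMB at 0, and IRF8 alone reached 2.29. Fibroblast markers (7 of 8 found) summed to at most 0.644 and endothelial markers (6 of 7 found) to at most 1.08. In bulk RNA, fewer cells expressing a gene and less of its RNA per cell cannot be told apart. The wild-type libraries with relative depth under 0.75 (0.444 to 0.742) were set apart, a cut made after seeing the data. These 5 libraries set apart are day 0 replicate 1, 3D day 3 replicate 1, 3D day 8 replicate 1, 3D day 14 and 2D day 4 replicate 1. AVL9-KD day 0 line 1 (0.732) and AVL9-KD 2D day 4 line 4 (0.532) were also under the cut, but the rule took wild type only. The 5 libraries listed TIMM13 at 0, where the other 24 had at least 30.9 FPKM. Results that rest on the 5 are given without them where that moved a call.

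The resting level of the genes was uneven. At day 0 the highest levels per length were those of IDO1, the enzyme that opens tryptophan breakdown, at 44.0 to 136 FPKM in the 4 libraries, and SAMD9L, an antiviral protein that inhibits translation, at 67.8 to 89.6 FPKM. TRIM25, a ubiquitin and ISG15 ligase, stood at 30.3 to 34.5 FPKM, HERC6, of the HERC ligase family, at 25.2 to 28.3 and the transcription factor IRF1 at 22.3 to 31.1. IFIT1, IFIT2, MX2, OASL and PSMB8 were all under 1 FPKM at day 0. Among the 8 wild-type groups, the highest mean was in 2D culture at day 11 for 26 of the 35 tested genes and the lowest in 3D culture at day 8 for 20. Over all 13 groups the AVL9-KD 2D culture had the highest mean for 19 genes. The matching shares of all tested genes were not computed, so these counts alone do not set the list apart. The median of all genes leaned the same way, at −0.13 in 3D day 8 and 0.06 in 2D day 11 against day 0. It was 0.19 in the AVL9-KD 2D culture against wild type. The map of group means against day 0 shows the levels of the 35 genes side by side.

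**Figure D1:**
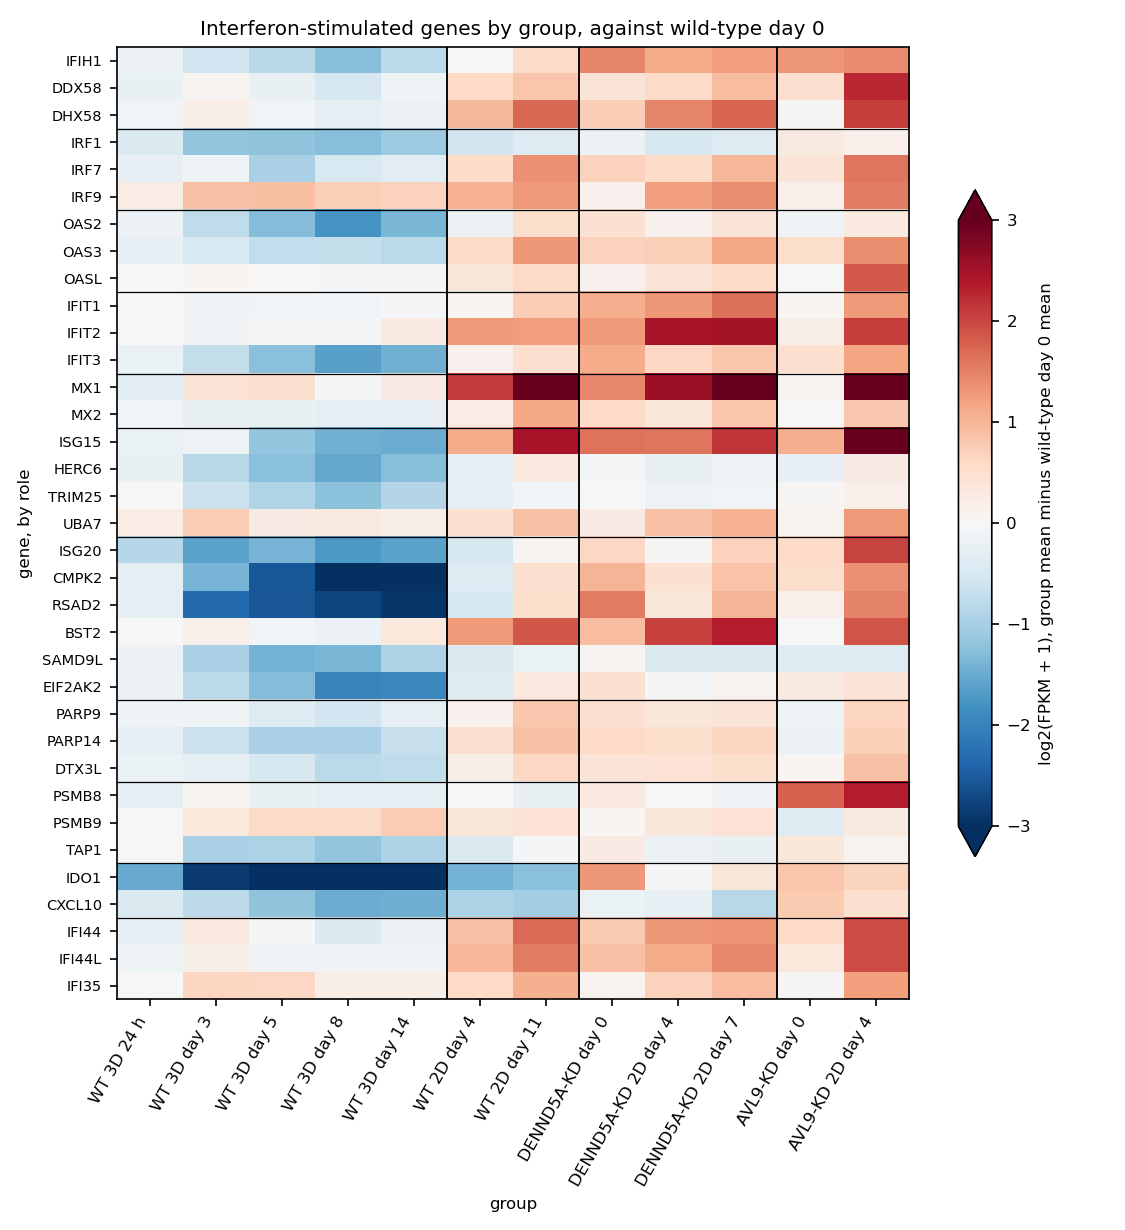
Group mean of log2(FPKM + 1) minus the wild-type day 0 mean, for the 35 tested interferon-stimulated genes (vertical axis, ordered by role) in the other 12 groups (horizontal axis), coloured from −3 to 3. IDO1, CMPK2 and RSAD2 are lowest in 3D culture at day 8 and day 14, MX1 and ISG15 are high in 2D culture, and ISG20 and PSMB8 are high in the AVL9-KD 2D culture.

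The 3D series compared cysts at each time with the cells they were seeded from. In cysts the interferon-stimulated genes went down with time: IDO1 fell by 4.97, CMPK2 by 3.28 and RSAD2 by 2.76 on the log2 scale by day 8, and 20 of 35 tested genes were lower at that time. Only IRF9, the DNA-binding subunit of the interferon-responsive transcription factor complex, and PSMB9, a subunit of the immunoproteasome, were called higher at day 8. At 24 h limma called none of the 35 (2 had an unadjusted p under 0.05, IDO1 and ISG20, and every alternative run also called 0), against 0.629% of all tested genes called higher and 0.561% called lower. At day 3, 15 were lower and 3 higher, against 23.1% and 28.0% of all tested genes. At day 5, 19 were lower (31.2% of all) and 3 higher (26.4%). At day 8, 20 of 35 were lower, against 38.0% of all tested genes, and 2 higher, against 24.7%. The median change of the 35 was −0.18 at 24 h, −0.22 at day 3, −0.73 at day 5 and −0.71 at day 8, where the median of all tested genes was 0.06, 0.05, −0.04 and −0.13. Day 8 set directly against 24 h gave 16 lower (36.5% of all) and 2 higher (17.3%), with a median of −0.47 beside −0.19 for all genes.

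CMPK2, a mitochondrial nucleotide kinase induced by interferon, stood at 11.6, 13.1, 11.1 and 9.17 FPKM in the day 0 libraries. It was 9.32 and 8.84 at 24 h, 3.73 and 3.48 at day 3, 1.41 and 0.795 at day 5, and at day 8 replicate 1 was listed at 0 and replicate 2 at 0.567 FPKM. The groups from day 3 on did not overlap day 0, which at day 8 comes from the choice of the gene, as for RSAD2 and IDO1 below. The change was −1.40 at day 3, −2.55 at day 5 and −3.28 ± 0.21 at day 8 (adjusted p 3.63e-10). RSAD2 encodes viperin, which makes a chain-terminating nucleotide, and its gene lies next to CMPK2 in the RefSeq gene order. Its FPKM were 2.57, 11.3, 10.3 and 7.72 at day 0, 5.29 and 6.16 at 24 h, 0.400 and 0.867 at day 3, and 0.203 and 0.193 at day 8. RSAD2 thus had most of its fall by day 3 (−2.33, against −2.76 ± 0.36 at day 8, adjusted p 1.9e-06), and all libraries from day 3 on lay below the lowest day 0 library.

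IDO1 was 136, 74.9, 67.0 and 44.0 FPKM at day 0, 25.2 and 25.4 at 24 h, 9.88 and 8.70 at day 3 and 5.03 and 2.72 at day 5. The day 8 cysts held 1.75 and 1.08 FPKM. Each time lay wholly below day 0, and the change at 24 h (−1.51, adjusted p 0.21) did not pass the test while that at day 8 did (−4.97 ± 0.55, adjusted p 2.25e-07). CXCL10, a chemokine for activated T cells, was 1.43 to 2.70 FPKM at day 0 and was listed at 0 and at 0.101 at day 8 (−1.50 ± 0.27).

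Among the proteins that act on foreign RNA and on translation, EIF2AK2, the kinase PKR that halts translation on double-stranded RNA, was 17.3, 27.6, 23.5 and 19.8 FPKM at day 0 and 4.67 and 4.88 at day 8 (−1.98 ± 0.18, adjusted p 1.98e-08). OAS2, which makes oligoadenylates on double-stranded RNA, was 14.5, 22.3, 19.6 and 16.9 FPKM at day 0 and 4.60 and 4.52 at day 8 (−1.78 ± 0.19, adjusted p 1.12e-07). In both genes the day 8 libraries agreed closely, and their lack of overlap with day 0 comes from the choice. OAS3 fell by 0.71, and OASL, a family member of low level, changed by −0.05 and was not called. ISG20, an exonuclease that degrades RNA, was 1.01 to 3.88 FPKM at day 0 and listed at 0 in both day 8 libraries. IFIT3, a scaffold of the IFIT complex on foreign RNA, fell by 1.62 ± 0.20 (adjusted p 7.23e-07), while IFIT1 and IFIT2 reached at most 0.507 FPKM in the cyst libraries up to day 8 and were not called. SAMD9L fell by 1.36 and BST2, the tether that holds budding virus at the cell surface, changed by −0.17 and was not called.

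In the ISG15 system, HERC6, also chosen among genes without overlap, was 25.2, 28.3, 28.2 and 26.1 FPKM at day 0. It was 7.94 and 9.48 FPKM at day 8 (−1.53 ± 0.16, adjusted p 1.27e-07). ISG15 itself, the ubiquitin-like modifier, was 3.11, 13.1, 10.2 and 6.53 FPKM in the day 0 libraries. Cysts held 5.85 and 7.35 FPKM of it on day 3 and 1.74 and 2.45 FPKM on day 8. The day 3 values lay inside the day 0 range, and ISG15 was called lower at day 5 and at day 8 (−1.45 ± 0.37, adjusted p 0.00229). TRIM25 fell by 1.22, and UBA7, the enzyme that activates ISG15, was called higher at day 3 alone of the 4 times tested in cysts (0.76). At day 8 UBA7 was not called, but it was called higher after quantile normalization (0.43, adjusted p 0.00276) and after median-ratio scaling (0.45, adjusted p 0.00173).

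Of the cytosolic RNA sensors, IFIH1 (MDA5, for long double-stranded RNA) was 4.35, 5.76, 4.74 and 4.67 FPKM at day 0 and declined through 2.73 and 3.17 at day 3 to 1.48 and 1.37 at day 8 (−1.27 ± 0.11, adjusted p 6e-09). DDX58 (RIG-I, for RNA with a free triphosphate end) fell by 0.50 at day 8 (adjusted p 0.0194), a call lost after median-ratio scaling (adjusted p 0.0682). DHX58 (LGP2, a regulator of the other sensors) changed by −0.30 and was not called. The transcription factors moved apart. IRF1 was 31.1, 22.3, 23.6 and 24.7 FPKM at day 0 and 10.1 and 9.57 at day 8 (−1.27 ± 0.22, adjusted p 4.59e-05). IRF9 was 3.37, 3.82, 3.01 and 3.13 FPKM at day 0 and 5.74 and 6.41 at day 8, above every day 0 library (0.71 ± 0.15, adjusted p 0.000333). IRF7, which drives interferon genes, was 2.17, 4.82, 2.86 and 3.08 FPKM at day 0 and 1.97 and 2.04 at day 8 and was not called (−0.46 ± 0.29, adjusted p 0.183), though it was called lower at day 5 (−0.97, adjusted p 0.00829).

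The ADP-ribosyltransferase gene PARP9, its partner ligase DTX3L and their neighbour PARP14 all fell at day 8, by 0.56, 0.81 and 0.98. In antigen presentation, TAP1, the peptide transporter, fell by 1.17, and PSMB9 rose by 0.56 ± 0.17 (adjusted p 0.00748), a call lost without 3D day 8 replicate 2 (adjusted p 0.0713). PSMB8, another immunoproteasome subunit, reached at most 0.614 FPKM in the cysts and was not called. Neither Mx GTPase was called. MX1 was 0.220 to 3.12 FPKM at day 0 and 1.35 and 1.68 at day 8 (−0.03). MX2, low at day 0, was listed at 0 in both day 8 libraries, and was called lower at a pseudocount of 0.1 (adjusted p 0.00954) and after quantile normalization (adjusted p 0.0152). IFI44 and IFI44L, neighbouring genes of unsettled function, and IFI35 were not called at day 8.

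The library from day 14, which has no replicate and so no test, was at least 2-fold lower than the day 0 mean of FPKM + 1 for 11 of the 35 genes (11.7% of all tested genes) and 2-fold higher for none (12.6%), with a median of −0.68 beside −0.02 for all genes. It held IDO1 at 2.05, CMPK2 at 0.0917 and RSAD2 at 0.0746 FPKM, each close to or below the day 8 values. Day 14 and a library each of day 0, day 3 and day 8 are among the 5 libraries set apart. Within that set, day 8 against day 0 had 24 of 35 genes lower (median −0.36, beside −0.08 for all genes), and in the other libraries 31 were lower (median −0.81, beside −0.19). With the 5 libraries left out, the day 8 counts were again 20 lower and 2 higher. After median-ratio scaling 3 members were higher and 19 lower at day 8, and of all genes 3936 were higher and 3800 lower, in place of 2911 and 4478. Leaving out 24 h replicate 2 reduced the day 8 against 24 h count from 18 to 11.

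The 2D series compared transwell monolayers with the same day 0 cells. By day 11 the monolayers had more of most interferon-stimulated genes: MX1 rose by 3.38 and ISG15 by 2.47 on the log2 scale, and 24 of 35 were called higher. IDO1 and CXCL10 were the 2 called lower. At day 4, 15 were higher, against 30.3% of all tested genes, and 7 lower, against 29.6%, with a median of 0.17 (0.00 for all genes). Without the 5 libraries set apart the day 4 counts were 7 higher, against 25.7% of all tested genes, and 7 lower, against 28.0%, with a median of 0.04 (−0.03 for all genes), so neither share then exceeded that of all genes. Within the set apart, day 4 against day 0 had 24 of 35 genes higher and 11 lower (median 0.59, beside 0.04 for all genes), and in the other libraries 19 were higher and 16 lower. With the replicate number as a block, CMPK2 was also called lower at day 4 as a random (−0.40, adjusted p 0.0381) or fixed block (−0.47, adjusted p 0.0172), and ISG20 as a fixed one (−0.71, adjusted p 0.0145). Replicate 1 of day 0 and of day 4 is set apart, so whether equal numbers are paired cultures cannot be told. At day 11, 24 were higher (32.2% of all) and 2 lower (23.7%), with a median of 0.63 (0.06 for all genes).

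MX1, a dynamin-like GTPase that traps viral nucleocapsids, was 0.220, 3.12, 2.04 and 1.78 FPKM at day 0. In monolayers it was 12.4, 9.93 and 7.97 FPKM at day 4 and 32.5, 31.2 and 16.4 at day 11. Neither time overlapped day 0, which at day 11 comes from the choice of the gene. The rise was 2.10 at day 4 and 3.38 ± 0.34 at day 11 (adjusted p 1.22e-07). MX2, next to MX1 in the gene order, rose by 1.15 at day 11 from at most 0.450 FPKM at day 0 to between 1.43 and 1.80. It passed the filter only through 2D day 11, DENND5A-KD 2D day 7 and AVL9-KD 2D day 4, so its test depends on the rise it measures. ISG15 was 22.5, 17.3 and 12.6 FPKM at day 4 and 60.5, 59.3 and 26.2 at day 11, above the highest day 0 library (13.1) except for day 4 replicate 3. Its change was 1.10 at day 4 (adjusted p 0.00688), a call lost without the 5 libraries set apart (0.57, adjusted p 0.146), and 2.47 ± 0.33 at day 11 (adjusted p 3.44e-06). UBA7 rose by 0.87 at day 11, while TRIM25 and HERC6 were not called.

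BST2 was 2.80, 4.79, 4.96 and 4.00 FPKM in the day 0 libraries. Monolayers held 12.0, 11.4 and 10.4 FPKM of it on day 4 and 20.6, 20.7 and 12.3 FPKM on day 11. The 3 groups did not overlap, which for day 11 and day 0 comes from the choice of the gene. BST2 rose by 1.86 ± 0.16 by day 11 (adjusted p 2.39e-08). DHX58 was 1.58, 3.14, 2.25 and 2.87 FPKM at day 0 and 10.9, 11.7 and 8.36 at day 11 (1.72 ± 0.17, adjusted p 1.1e-07). IFI44 was 7.19, 19.1, 13.3 and 15.6 FPKM at day 0 and 55.0, 56.0 and 29.1 at day 11 (1.70 ± 0.23, adjusted p 4.1e-06). IFI44L was 0.698, 2.44, 1.27 and 1.71 FPKM at day 0 and 6.94, 6.67 and 5.05 at day 11 (1.55 ± 0.18, adjusted p 5.98e-07). These 3 genes were chosen among those whose day 11 and day 0 libraries did not overlap. All 3 RNA sensors were called higher at day 11, with DDX58 up by 0.84 and IFIH1 by 0.57. All 3 oligoadenylate synthetase family members and all 3 IFIT genes were called higher too, led by OAS3 (1.30) and IFIT2 (1.25). Among them OASL and IFIT1 were still low at day 11, at 0.652 to 0.735 and 0.417 to 1.08 FPKM. OASL was tested only because the AVL9-KD monolayers took it past the filter.

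IRF9 was 8.74, 8.96 and 6.18 FPKM at day 4 and 9.54, 9.55 and 9.11 at day 11 (1.27 ± 0.13 against day 0, adjusted p 1.71e-07). IRF7 was 5.49, 6.88 and 3.35 FPKM at day 4, where it was not called, and 11.5, 10.7 and 7.10 at day 11 (1.36 ± 0.26, adjusted p 0.00018). IRF1 went the other way at day 4, with 20.5, 20.7 and 11.6 FPKM (−0.54), and at day 11, with 19.5, 20.6 and 17.5 FPKM, all below the lowest day 0 library, was not called (−0.38, adjusted p 0.105) but was called lower after median-ratio scaling (adjusted p 0.0292). IDO1 was 39.0, 39.2 and 13.1 FPKM at day 4 and 28.6, 23.2 and 41.8 at day 11. Those values lay under all day 0 libraries, but the call at day 11 (−1.26, adjusted p 0.0331) was lost without the filter (adjusted p 0.0598) and without the 5 libraries set apart (adjusted p 0.129). Nor did CMPK2, up 0.51 at day 11 (adjusted p 0.0252), keep its call at a pseudocount of 0.1 (adjusted p 0.24).

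Between the monolayer times, 9 genes were higher at day 11 than at day 4 and none was lower, against 1.90% and 0.178% of all tested genes, with a median of 0.54 (0.06 for all genes). They were ISG15 (1.37), MX2 (0.93), CMPK2 (0.90), OAS3 (0.75), DHX58 (0.74), OAS2 (0.72), PARP9 (0.69), EIF2AK2 (0.68) and IFIH1 (0.59). Day 11 is among the groups through which MX2 passed the filter, so its test depends on the rise it measures. IFIH1 was 5.51, 4.69 and 4.23 FPKM at day 4 and 7.79, 8.40 and 6.96 at day 11, without overlap. Replicate 3 was the lowest of its group for 34 of the 35 genes at day 4 (72.4% of all genes) and for 31 of 35 at day 11 (52.1% of all genes). The count of 9 became 5, 4 and 0 without day 4 replicates 1, 2 and 3, and 0, 0 and 15 without day 11 replicates 1, 2 and 3. It was 4 without the filter (1.17% of all genes called) and 0 with these groups fitted alone (0.0170%).

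Cysts and monolayers were also compared directly, 3D days 3, 5 and 8 (6 libraries) against 2D days 4 and 11 (6 libraries), a contrast that does not use day 0. In cysts 32 of the 35 interferon-stimulated genes were lower and none was higher, against 34.8% and 22.1% of all tested genes, and the median difference was −1.21 where that of all genes was −0.08. The largest differences by the rule for described genes were in ISG15 (−2.71 ± 0.25, adjusted p 4.32e-08), IDO1 (−2.61 ± 0.37, adjusted p 7.1e-06), RSAD2 (−2.56 ± 0.24, adjusted p 6.02e-08), CMPK2 (−2.47 ± 0.14, adjusted p 1.45e-10), MX1 (−2.45 ± 0.26, adjusted p 2.07e-07) and BST2 (−1.60 ± 0.12, adjusted p 4.39e-09). ISG15 ranged from 1.74 to 7.35 FPKM in the cysts and from 12.6 to 60.5 in the monolayers. RSAD2 ranged from 0.193 to 0.867 FPKM in the cysts and from 3.92 to 12.4 in the monolayers, and MX1 from 1.35 to 2.67 and from 7.97 to 32.5. The 6 were chosen among genes whose cultures did not overlap.

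Every role was represented in the difference. All 4 genes of the ISG15 system, all 6 other antiviral effectors, both Mx genes, and all 3 genes in each of the sensors, the transcription factors, the IFIT family, the oligoadenylate synthetase family and the PARP group were lower in cysts. The 3 genes not called were PSMB8 (−0.05), PSMB9 (0.09) and CXCL10 (−0.16). The smallest called differences were in UBA7 (−0.23), IRF9 (−0.32) and IFI35 (−0.35). IRF9 was 5.74 to 7.72 FPKM in the cysts and 6.18 to 9.55 in the monolayers, so the cultures overlapped. Under quantile normalization 29 genes were lower and under median-ratio scaling 30, with none higher, while of all genes 3573 were then higher and 3605 lower in place of 2602 and 4094. The age of culture differed between the groups, since no time was sampled in both, and culture format and time cannot be told apart.

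**Figure D2:**
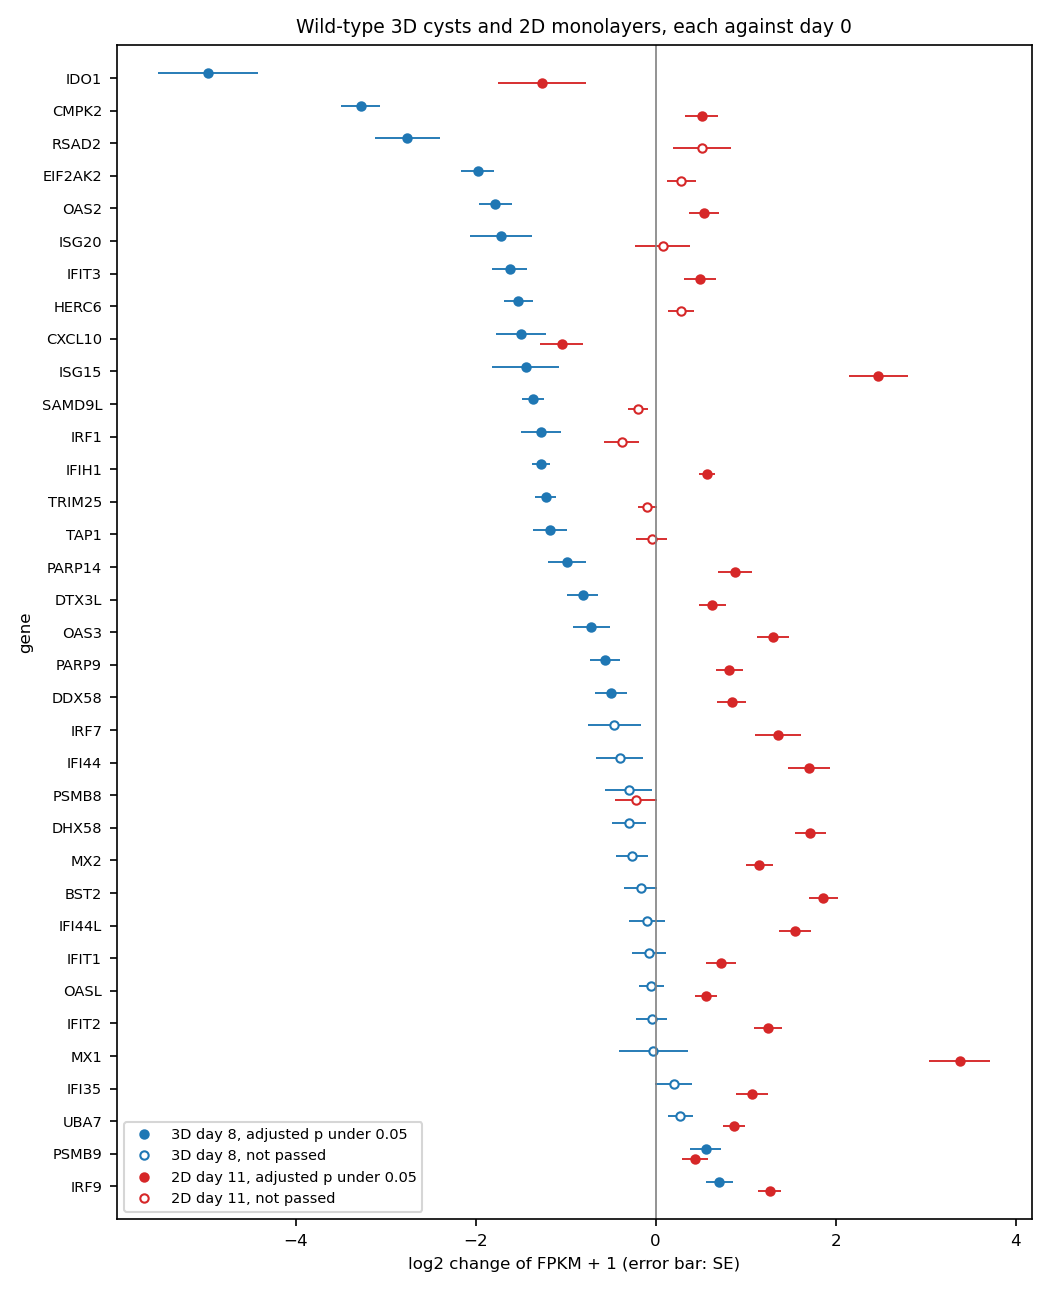
Change from day 0 on the log2(FPKM + 1) scale (horizontal axis) for each of the 35 tested interferon-stimulated genes (vertical axis), in 3D culture at day 8 (blue) and 2D culture at day 11 (red), with bars of 1 standard error and filled points where the adjusted p was under 0.05. The blue points run down to −4.97 for IDO1 and the red ones up to 3.38 for MX1, and both series share the day 0 libraries.

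Because the cyst and monolayer changes are drawn from the same day 0 libraries, their values are given side by side without a test between them. ISG15 changed by −1.45 in cysts at day 8 and by 2.47 in monolayers at day 11, OAS3 by −0.71 and 1.30, and IFIH1 by −1.27 and 0.57. MX1 changed by −0.03 and 3.38 and BST2 by −0.17 and 1.86. HERC6 changed by −1.53 and 0.28, SAMD9L by −1.36 and −0.19, and TRIM25 by −1.22 and −0.09, of which the monolayer values were not called. After quantile normalization HERC6 was called higher in the monolayers (0.36, adjusted p 0.0221), and after median-ratio scaling SAMD9L (−0.26, adjusted p 0.00804) and TRIM25 (−0.16, adjusted p 0.0302) were called lower.

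**Figure D3:**
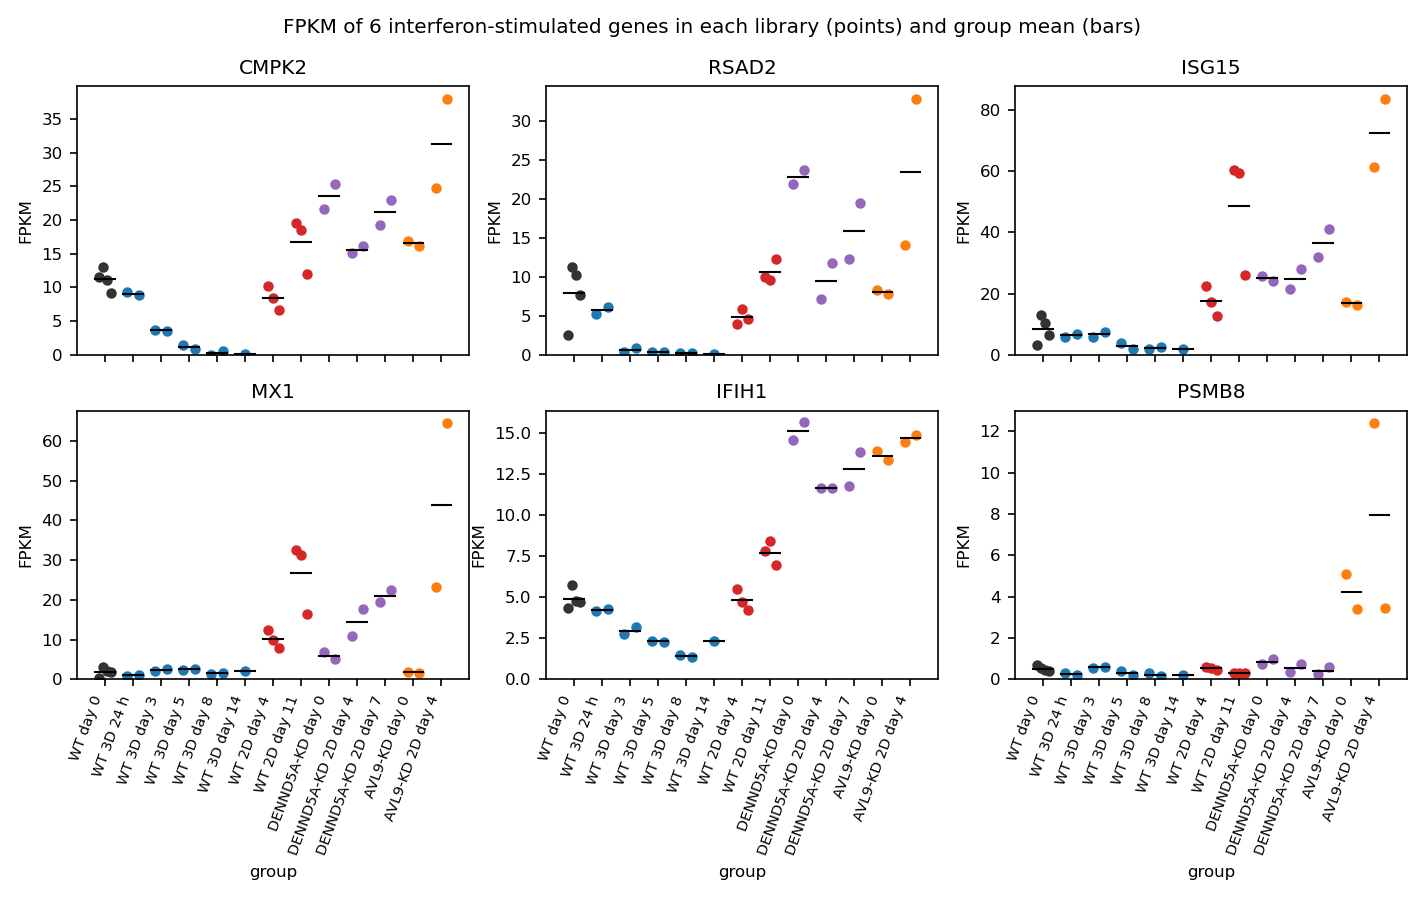
FPKM in each library (points) and group mean (bars) for CMPK2, RSAD2, ISG15, MX1, IFIH1 and PSMB8 over the 13 groups. CMPK2 and RSAD2 sink towards 0 along the 3D series, ISG15 reaches 83.8 FPKM in the AVL9-KD 2D culture, and PSMB8 is above 3 FPKM only in the 4 AVL9-KD libraries.

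The DENND5A-KD lines at day 0 were compared with wild-type cells at day 0. They had more ISG15, RSAD2, IFIH1 and MX1 RNA, by 1.44 to 1.64 on the log2 scale, and 12 of 35 genes were higher (3.27% of all tested genes) and none lower (2.25%), with a median of 0.59 where that of all genes was −0.01. All 3 IFIT genes and both Mx genes were among the 12, and none of the transcription factors, PARP genes or antigen presentation genes was. IFIH1 was 14.6 FPKM in line 1 and 15.6 in line 2, against 4.35 to 5.76 in wild type (1.46 ± 0.11, adjusted p 2.32e-08). ISG15 was 25.9 and 24.2 FPKM, above the highest wild-type value of 13.1 (1.64 ± 0.37, adjusted p 0.0103). RSAD2 was 21.9 and 23.8 FPKM, against 2.57 to 11.3 (1.55 ± 0.36, adjusted p 0.012). The lines agreed closely in each of these genes, whose lack of overlap with wild type comes from the choice.

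IFIT3 was 10.6 and 11.9 FPKM in the DENND5A-KD lines at day 0, against 4.13 to 6.09 in wild type (1.11 ± 0.20, adjusted p 0.00128). CMPK2 was 21.7 and 25.4 FPKM, against 9.17 to 13.1 (1.01 ± 0.21, adjusted p 0.00515). MX1 was 6.76 and 5.23 FPKM, against 0.220 to 3.12 (1.44 ± 0.38, adjusted p 0.0286). These 3 genes, too, were chosen among those that did not overlap wild type. The other called genes were IFIT2 (1.27), IFIT1 (1.09), BST2 (0.91), IFI44L (0.88), DHX58 (0.73) and MX2 (0.60). Of the transcription factors, IRF7 was 4.96 and 6.50 FPKM (0.70), IRF1 19.8 and 24.7 (−0.18) and IRF9 3.07 and 4.46 (0.13), none called. The count of 12 became 6 without line 1, 4 without line 2 and 5 with these groups fitted alone. Of all tested genes, 3.40% were called with these groups fitted alone. MX1 lost its call without wild-type day 0 replicate 1, a library with 0.220 FPKM (1.09, adjusted p 0.0563), and CMPK2 at a pseudocount of 0.1 (adjusted p 0.202).

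In 2D culture at day 4, 5 of 35 genes were higher in the DENND5A-KD lines than in wild type (5.54% of all tested genes) and none lower (5.79%), with a median of 0.26 beside −0.03 for all genes. IFIT2, whose product binds RNA in the IFIT complex, was 6.07 and 7.35 FPKM, against 2.50, 2.40 and 2.15 in wild type (1.20 ± 0.18, adjusted p 0.000238). IFIT1 was 1.31 and 2.10 FPKM, against 0.158, 0.140 and 0.0822 (1.25 ± 0.20, adjusted p 0.000315). IFIH1 was 11.7 in both lines, against 5.51, 4.69 and 4.23 (1.13 ± 0.11, adjusted p 2.99e-06). No alternative that was run lost the call of these 3 genes. IFIT2 and IFIH1, like CMPK2 and BST2 below, were chosen among genes that did not overlap wild type. IFIT1 passed the filter only through 5 groups in which it was high, the DENND5A-KD 2D day 4 group among them. Its test thus depends in part on the high values it measures. CMPK2 was 15.0 and 16.2 FPKM, against 10.2, 8.47 and 6.59 (0.84 ± 0.22, adjusted p 0.0177), and BST2 was 18.6 and 21.3, against 12.0, 11.4 and 10.4 (0.77 ± 0.19, adjusted p 0.0125). Both lost their call without either line, so that 3 genes were then called, and the count was 8 after quantile normalization and 3 with these groups fitted alone.

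Within the DENND5A-KD lines, 6 genes were higher in 2D culture at day 4 than at day 0 (20.1% of all tested genes) and 3 lower (22.2%), with a median of −0.06 beside −0.01 for all genes. IFIT2 (1.21), BST2 (1.13), MX1 (1.11), IRF9 (1.10), DHX58 (0.74) and UBA7 (0.64) rose, and RSAD2 (−1.22), SAMD9L (−0.45) and IFIH1 (−0.35) fell. RSAD2 went from 21.9 and 23.8 FPKM to 7.20 and 11.8, without overlap. With the line as a fixed block, the pairing that the line numbers give, 6 were higher (22.2% of all tested genes) and 8 lower (26.1%). The count was 5 without line 1 or line 2 at day 0, or without line 2 at day 4. Between 2D day 4 and day 7 limma called none of the 35 (1 had an unadjusted p under 0.05, and every alternative run also called 0), against 0.0170% of all tested genes called higher and 0.0340% lower, and the median was 0.18 beside 0.04. ISG15 in that time went from 21.5 to 32.0 FPKM in line 1 and from 28.2 to 41.2 in line 2.

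The AVL9-KD lines at day 0 had 3 genes higher than wild type (13.4% of all tested genes) and none lower (4.59%), with a median of 0.16 beside 0.11 for all genes. PSMB8 was 5.08 FPKM in line 1 and 3.40 in line 4, against 0.416 to 0.669 in wild type (1.78 ± 0.26, adjusted p 0.000108). It passed the filter through the AVL9-KD groups alone, so its test depends on the rise it measures. IFIH1 was 13.9 and 13.4 FPKM, against 4.35 to 5.76 (1.32 ± 0.11, adjusted p 6.42e-08). ISG15 was 17.4 and 16.2 FPKM, above the highest wild-type library (1.09 ± 0.37, adjusted p 0.0497), but that call was lost in several alternatives, among them both scalings (adjusted p 0.0989 and 0.0707) and leaving out wild-type day 0 replicate 1 (0.74, adjusted p 0.103). IRF1 at 32.2 and 28.8, IRF7 at 6.82 and 2.69 and IRF9 at 4.37 and 3.32 FPKM were not called. Quantile normalization gave 2 members higher and 1 lower and median-ratio scaling 2 and 2, while of all genes 899 and 956 were then called after quantile normalization in place of 1578 and 540. With the wild-type replicate number and the line as fixed blocks 7 were higher and 2 lower, where 18.5% and 6.80% of all tested genes were. The count of 3 was 5 without wild-type day 0 replicate 2.

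In 2D culture at day 4 the AVL9-KD lines had more of nearly the whole list. They carried 2.50 more ISG20, 2.33 more PSMB8 and 2.02 more ISG15 on the log2 scale, and 30 of 35 genes were higher than in wild type (18.7% of all tested genes) and none lower (2.34%), with a median of 0.85 beside 0.19 for all genes. OASL and PSMB8 are among the 35 only because of these lines. The 5 genes not called were OAS2 (0.48), PARP14 (0.26), SAMD9L (0.05), PSMB9 (−0.09) and TAP1 (0.53), and TAP1 was called with the line as a block (adjusted p 0.0056).

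ISG20 was 10.3 FPKM in line 1 and 14.9 in line 4, against 2.09, 2.04 and 0.415 in wild-type 2D day 4 (2.50 ± 0.36, adjusted p 9.78e-05). PSMB8 was 12.4 and 3.47 FPKM, against 0.587, 0.561 and 0.455 (2.33 ± 0.27, adjusted p 1.25e-05). Both genes were chosen among those that did not overlap wild type. The lines differed in PSMB8, and its change was 1.54 without line 1 and 3.13 without line 4. ISG15 was 61.5 and 83.8 FPKM, against 22.5, 17.3 and 12.6 (2.02 ± 0.40, adjusted p 0.00154). RSAD2 was 14.1 and 32.9 FPKM, against 3.92, 5.85 and 4.64 (1.98 ± 0.38, adjusted p 0.00145). MX1 was 23.2 and 64.4 FPKM, against 12.4, 9.93 and 7.97 (1.86 ± 0.40, adjusted p 0.00326). Line 4 was the higher in these 3 genes and in 23 of the 35 (46.8% of all genes), with a median difference between lines of 0.31 (−0.02 for all genes), and without it MX1 changed by 1.14 (adjusted p 0.0833) and RSAD2 by 1.39.

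IDO1 showed the reverse, with 301 FPKM in line 1 and 45.9 in line 4, against 39.0, 39.2 and 13.1 in wild type (2.07 ± 0.58, adjusted p 0.0164). Without line 1 its change was 0.73 (adjusted p 0.421), without wild-type replicate 3 it was 1.57 (adjusted p 0.0954), and so the call rests on single libraries. IRF1 had the same order of lines, 39.1 and 19.9 FPKM against 20.5, 20.7 and 11.6, with overlap (0.68, adjusted p 0.0421). IRF7 was 9.23 and 14.3 FPKM, above 5.49, 6.88 and 3.35 (1.05, adjusted p 0.0222), and IRF9 was 10.8 and 12.5, above 8.74, 8.96 and 6.18 (0.51, adjusted p 0.0258).

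All 3 RNA sensors were called higher in the AVL9-KD monolayers. DDX58 was 26.2 and 40.5 FPKM, against 11.2, 10.2 and 7.68 (1.67, adjusted p 7.99e-06), IFIH1 was 14.4 and 14.9, against 5.51, 4.69 and 4.23 (1.44, adjusted p 6.71e-08), and DHX58 was 9.80 and 18.2, against 6.03, 6.20 and 5.02 (1.10, adjusted p 0.001). All 4 genes of the ISG15 system, all 3 IFIT genes and both Mx genes were called as well. CMPK2 (1.77), OASL (1.46), CXCL10 (1.44), IFIT1 (1.22), IFI44 (1.08) and IFIT3 (1.05) had changes above 1.

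The scale bears on this comparison, since the median of all genes was itself 0.19 higher in the AVL9-KD lines. After quantile normalization 22 members were higher and none lower, and after median-ratio scaling 21, while of all genes 1100 were higher and 973 lower, or 888 and 876, in place of 2199 and 275. IRF1, IRF9, HERC6, MX2, PARP9, IFI35, TRIM25 and BST2 lost their call under each of these scalings, and IRF7 after median-ratio scaling (0.82, adjusted p 0.0667). The count was 19 without wild-type replicate 3 and 19 without line 4, and with these groups fitted alone it was 0, where 26 members still had an unadjusted p under 0.05 and the smallest adjusted p was 0.0557. Of all tested genes, 0.212% were called with these groups fitted alone. Relative depth was 1.64 in line 1 and 0.532 in line 4, and its part in the difference between lines was not tested.

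**Figure D4:**
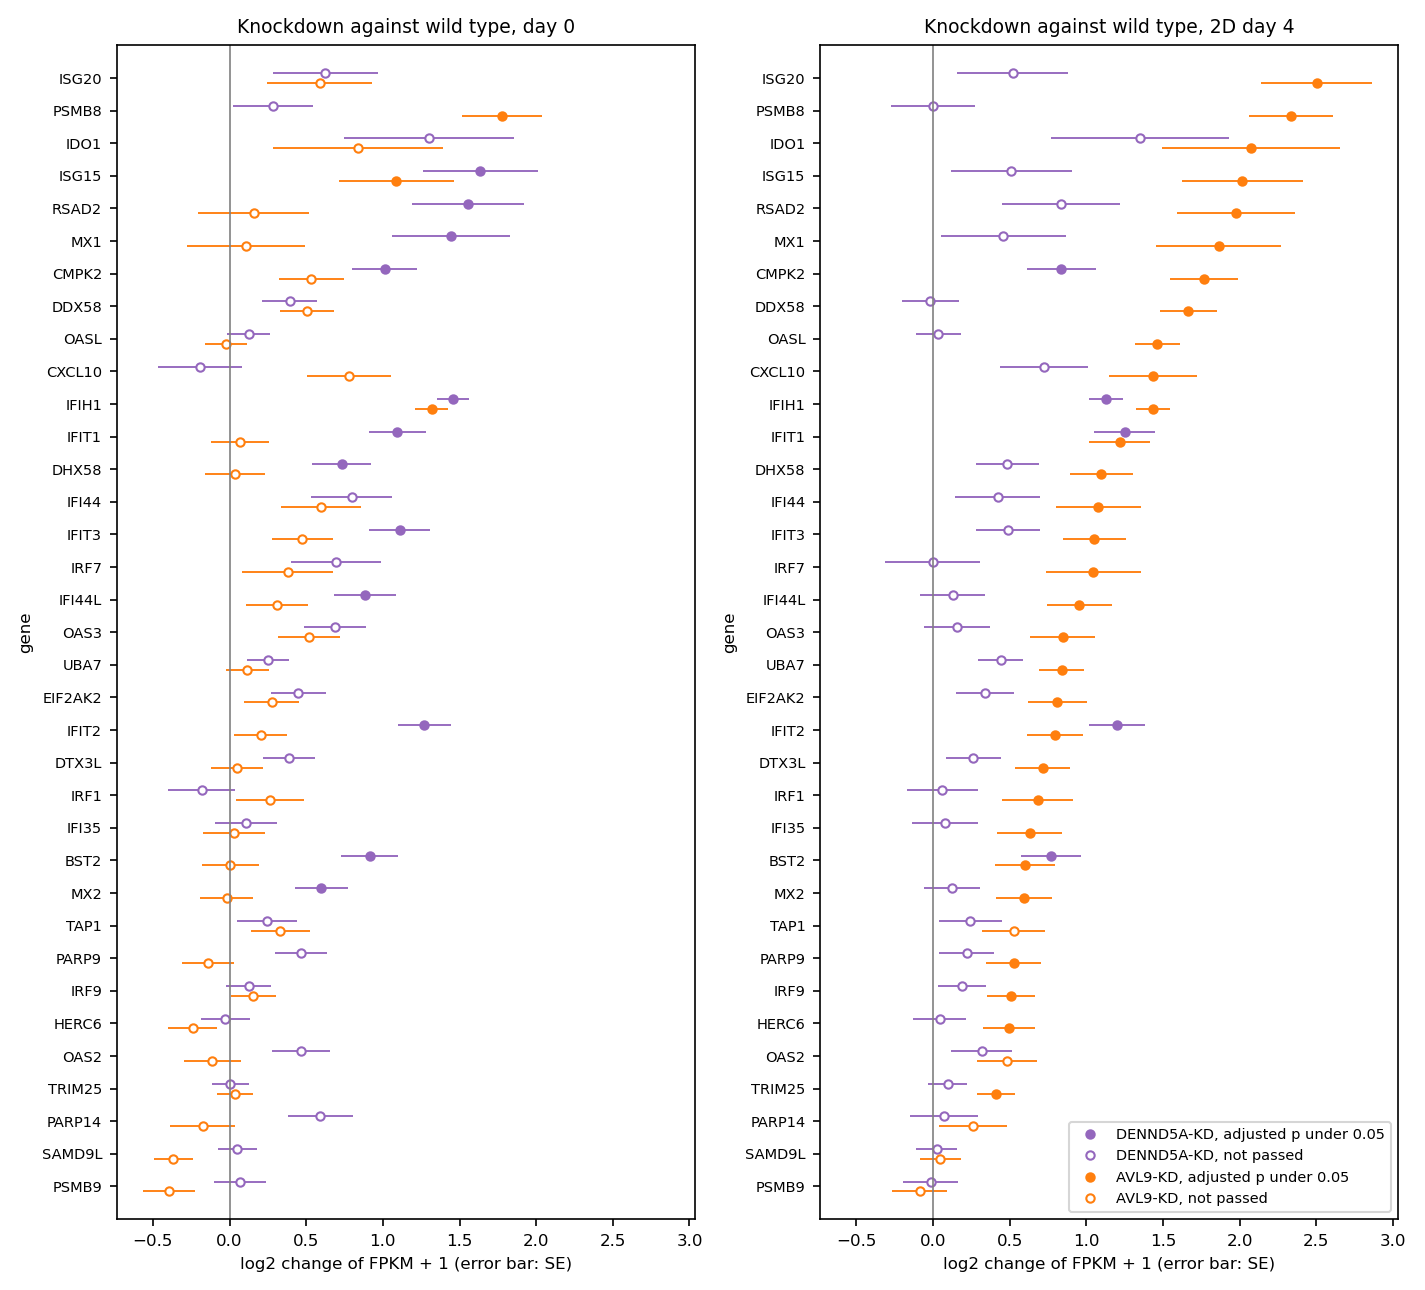
Difference from wild type on the log2(FPKM + 1) scale (horizontal axis) for the 35 tested interferon-stimulated genes (vertical axis) at day 0 (left) and in 2D culture at day 4 (right), for DENND5A-KD (purple) and AVL9-KD (orange), with bars of 1 standard error and filled points where the adjusted p was under 0.05. At day 0 the filled points are 12 purple and 3 orange, and in 2D culture 5 purple and 30 orange, and within a panel both knockdowns share the wild-type libraries.

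From day 0 to 2D day 4 within the AVL9-KD lines, 25 genes were higher (31.1% of all tested genes) and none lower (22.8%), with a median of 0.88 beside 0.09 for all genes. MX1 rose by 3.85, DHX58 by 2.05, ISG15 by 2.03, BST2 and IFIT2 by 1.87 each and OASL by 1.86. IFIH1, already high at day 0, changed by 0.10 and was not called. Whether that change differed from the wild-type one was tested as an interaction. For AVL9-KD, 3 genes had a larger rise than wild type (0.985% of all tested genes) and none a smaller one (0.238%), with a median of 0.61 beside 0.08. OASL (1.49 ± 0.20, adjusted p 0.000637), DDX58 (1.16 ± 0.26, adjusted p 0.026) and IFIT1 (1.15 ± 0.27, adjusted p 0.0393) were the 3, of which OASL was tested only because the AVL9-KD monolayers took it past the filter. The count was 8 and 5 with the line as a random and a fixed block, 6 without the 5 libraries set apart or without wild-type day 0 replicate 1, 7 without line 1 in 2D culture, 1 without wild-type day 0 replicate 2 or 2D day 4 replicate 3, and 1 at a pseudocount of 0.1, where OASL was not called (adjusted p 0.0756). For DENND5A-KD limma called none (4 had an unadjusted p under 0.05, and every alternative run also called 0), against 1.15% of all genes higher and 0.679% lower, with a median of −0.14 beside −0.03.

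The knockdowns were also set against each other, which avoids the shared wild-type libraries. At day 0, IFIT2 (1.07), IFIT1 (1.03) and BST2 (0.91) were higher in DENND5A-KD than in AVL9-KD and PSMB8 was lower (−1.49), that is 3 higher (1.49% of all tested genes) and 1 lower (2.62%), with a median of 0.34 beside −0.12 for all genes. IFIT1 was 1.23 and 1.39 FPKM in the DENND5A-KD lines and 0.261 and 0.0157 in the AVL9-KD lines, and BST2 was 7.55 and 9.65 against 3.61 and 4.60, each without overlap. In 2D culture at day 4 none was higher (3.28%) and 10 were lower in DENND5A-KD (19.1%), with a median of −0.55 beside −0.24. Those 10 were PSMB8 (−2.34), ISG20 (−1.98), DDX58 (−1.68), ISG15 (−1.51), OASL (−1.43), MX1 (−1.40), IRF7 (−1.05), CMPK2 (−0.93), IFI44L (−0.83) and OAS3 (−0.69). PSMB8 was 0.345 and 0.742 FPKM in the DENND5A-KD monolayers against 12.4 and 3.47 in the AVL9-KD ones, the largest difference of the 35 in that comparison. PSMB8 passed the filter through the AVL9-KD groups alone, and OASL through the AVL9-KD monolayers alone. The tests of PSMB8 at both times, and of OASL in 2D culture, thus depend on the high AVL9-KD values they measure.

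These counts moved with the processing. At day 0 the counts were 7 higher and 1 lower after quantile normalization, 11 and 1 after median-ratio scaling, and 9 and 1 with the line as a fixed block, and the total was 1 without DENND5A-KD line 1 or line 2 and 2 without AVL9-KD line 1. In 2D culture they were 1 higher and 7 lower after quantile normalization, 1 and 4 after median-ratio scaling, 1 and 16 with the fixed block, and 3 in all without DENND5A-KD line 1. Of all genes in 2D culture, 992 were higher and 951 lower after quantile normalization, in place of 386 and 2254.

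Other genes of the interferon pathway were taken from a list of 113 that excludes the 36, of which 84 were found and 69 tested. In cysts at day 8, 12 of the 69 were higher (24.7% of all tested genes) and 32 lower (38.0%). RNF213, an antimicrobial ubiquitin ligase, fell by 1.64, GBP5, a guanylate-binding protein, by 1.49, TICAM1, the adaptor of TLR3, by 1.43 and OAS1 by 1.27. IFNE, an epithelial type I interferon, rose by 1.64, from at most 0.287 FPKM at day 0 to 2.32 and 3.25, and STAT3 rose by 1.18. In monolayers at day 11, 35 of the 69 were higher (32.2% of all tested genes) and 7 lower (23.7%). Those higher included DDX60 (1.82), STAT3 (1.54), SOCS3 (1.53), an inhibitor of cytokine receptors, and OAS1 (1.21). IFNB1 reached at most 0.135 FPKM in any library and was not tested.

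In the DENND5A-KD lines at day 0, 3 of the 69 pathway genes were higher (3.27% of all tested genes) and none lower (2.25%): DDX60, a helicase linked to RIG-I signalling (1.52), OAS1 (1.04) and TNFSF10, the death ligand TRAIL (0.96). In AVL9-KD at day 0, 10 were higher (13.4% of all tested genes) and 2 lower (4.59%), shares close to those of all genes. In 2D culture at day 4, DENND5A-KD had 1 higher, DDX60 (0.98), where 5.54% of all genes were, and 4 lower, where 5.79% of all genes were. Those 4 were LGALS3BP (−0.64), IFNE (−0.60), TDRD7 (−0.54) and JAK2 (−0.32). In the AVL9-KD monolayers 18 were higher (18.7% of all tested genes) and none lower (2.34%). CCL5, a T cell chemokine, was 2.56 and 18.0 FPKM in the AVL9-KD monolayers, against 0.170 to 0.286 in wild type (2.74 ± 0.45, adjusted p 0.000338). DDX60 was 9.11 and 9.16 FPKM, against 1.24 to 1.81 (2.01 ± 0.25, adjusted p 2.17e-05), and was the 1 pathway gene called in the AVL9-KD interaction (1.59, adjusted p 0.0214).

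Several members lie side by side in the RefSeq gene order, with no protein-coding gene between them: CMPK2 and RSAD2, OAS3 and OAS2, MX2 and MX1, PARP9 and DTX3L, IFIT2 and IFIT3, IFI44 and IFI44L, and PSMB8, TAP1 and PSMB9. Neighbours did not always move alike. In the AVL9-KD monolayers PSMB8 rose by 2.33 while TAP1 (0.53) and PSMB9 (−0.09) were not called, and in cysts at day 8 IFIT3 fell by 1.62 while IFIT2 (−0.04) was not called. Some reads of the IFIT, Mx and oligoadenylate synthetase families may be shared between related genes. How the counting treated such reads is not given in the sources used here, so the split within these families carries some uncertainty.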

How the data were processed

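Expression was measured by RNA-seq in 29 libraries of MDCKII cells, grouped by genotype, culture format and time as the labels give them. The authors deposited FPKM per gene, and each library's file was joined by gene. The tools HISAT2 (2.1.0) and Cufflinks (2.2.1) and the builds canFam3 and CanFam3.1 are named, per the submitters' processing notes, with no role given. The settings of the counting are not given in the sources used here. FPKM carry no counts, so absolute depth is unknown and no count model was fitted; relative depth was estimated from the smallest increments among FPKM below 0.15.

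The deposited FPKM were taken to log2(FPKM + 1) and fitted with limma 3.58.1 (trend, moderated, 2-sided) under R 4.3.3. The design held 1 mean for each of the 13 groups, and the fit ran on the 11774 of 24223 genes that reached 1 FPKM in 2 or more libraries. Genes were called at a Benjamini-Hochberg adjusted p under 0.05 over these genes. Tables and figures were made with Python 3.11.15, pandas 2.3.3, numpy 2.4.6 and matplotlib 3.10.9, and the fit was tested on simulated data. The interferon-stimulated genes and the pathway and marker lists were chosen with earlier results of these data known. The rule for naming genes with their values per library took the 6 largest changes of a comparison among called genes whose groups did not overlap and whose higher mean reached 5 FPKM, and always IRF1, IRF7 and IRF9 (STAT2, also in the rule, was not analysed here); further genes were described after their values were seen. RefSeq gene order was read for 35 of the 36 genes from UU_Cfam_GSD_1.0, without coordinates.

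The alternatives were a pseudocount of 0.1, no filter, median-ratio scaling, quantile normalization, the replicate number or knockdown line as a random or fixed block, each comparison's groups fitted alone, and each library left out. A term for the 5 libraries set apart, and leaving them out, were added after seeing the data. Same-numbered wild-type libraries were checked by the correlation of deviations from group means, which ran from −0.16 to 0.558 over 41 pairs, with 19 over 0.1. Among groups with 3 same-numbered pairs, all 3 exceeded 0.1 for day 0 and 2D day 4 (0.13 to 0.558) and not for day 0 or 2D day 4 with 2D day 11. The main fit held no replicate block. Replicate 1 of day 0 and of 2D day 4 is set apart, so these correlations cannot tell whether equal numbers are paired cultures. Of the cyst groups, day 3 and day 8 also correlated with day 0 (0.239 to 0.504), with 2 pairs each, and day 5 did not. The knockdown line numbers name the same line at each time and so pair by design, and their correlations over 8 pairs ran from 0.0101 to 0.358. Where both groups hold 2 libraries of the same numbers, as in the knockdowns, the 2 pairs give the same value.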

Additional observations from a re-analysis of the deposited data

Results flagged for a closer look

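IFIT3 in wild-type day 0 replicate 2 was 6.09 FPKM, and its gap to the nearest of the other 3 libraries was 0.89 of the range of the group, more than Dixon's 95% critical value for 4 samples. It was the 1 of 35 genes to show such a gap, and chance gives about 1 in 20, so a single gap is no more than chance gives. That library was the highest of the day 0 group for 26 of the 35 genes, where it was the highest for 38.2% of all genes.

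OASL, DDX58 and IFIT1 are listed because their change from day 0 to 2D day 4 differed between the AVL9-KD lines and wild type by the interaction test. OASL differed by 1.49 ± 0.20 (limma adjusted p 0.000637), from 0.0681 and 0.191 FPKM at day 0 to 3.48 and 2.72 in 2D culture in the knockdown lines, with the rise in both lines. These monolayers were the 1 group through which OASL passed the filter on low values, so its test depends on the rise it measures. DDX58 differed by 1.16 (adjusted p 0.026), from 11.2 and 7.11 FPKM to 26.2 and 40.5. IFIT1 differed by 1.15 (adjusted p 0.0393), from 0.261 and 0.0157 FPKM to 1.03 and 2.37, and its call was lost after quantile normalization (adjusted p 0.108).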

How the results depend on the processing

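No member changed direction among its calls under the alternatives run, and absolute depth, which is unknown, limits what can be said of genes near 0. The number was also used as a replicate block. The random block gave 15 calls for 2D day 11 against day 4 (4.42% of all tested genes) and 8 for the AVL9-KD interaction (2.29%). The fixed block gave 9 for AVL9-KD at day 0 (25.3%) and 14 for DENND5A-KD 2D day 4 against day 0 (48.3%). It gave 5 for the AVL9-KD interaction (2.14%). For DENND5A-KD against AVL9-KD it gave 10 at day 0 (11.4%) and 17 in 2D culture (31.2%). The block moved no other count by more than 1.5 times. With the groups fitted alone, fewer libraries estimate the spread. The calls were then 0 for 2D day 11 against day 4 (0.0170% of all tested genes called). They were 0 for DENND5A-KD against AVL9-KD at day 0 (0.0425%) and in 2D culture (0%), and 0 for AVL9-KD in 2D culture (0.212%). The AVL9-KD interaction had 1 call (0.127%), and DENND5A-KD had 3 in 2D culture (0.824%) and 5 at day 0 (3.40%). AVL9-KD 2D day 4 against day 0 had 15 (29.7%). Quantile normalization gave 8 calls for DENND5A-KD in 2D culture (17.6% of all tested genes) and 8 for DENND5A-KD against AVL9-KD at day 0 (3.75%). For the latter comparison median-ratio scaling gave 12 at day 0 (5.41%) and 5 in 2D culture (13.1%). A pseudocount of 0.1 gave 6 for DENND5A-KD against AVL9-KD in 2D culture (20.1% of all tested genes) and 1 for the AVL9-KD interaction (1.08%). No filter gave 4 for 2D day 11 against day 4 (1.17%). Without the 5 libraries set apart the calls were 14 for 2D day 4 against day 0 (53.8% of all tested genes). They were 6 for the AVL9-KD interaction (1.28%) and 7 for DENND5A-KD against AVL9-KD at day 0 (5.98%). The cause of these moves was not tested unless stated.

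Leaving out each library in turn, the calls ran from 16 to 18 at 3D day 3, 18 to 23 at day 5, 19 to 23 at day 8, 11 to 17 for day 8 against 24 h, 17 to 21 at 2D day 4, 21 to 27 at 2D day 11, 0 to 15 for 2D day 11 against day 4, and 30 to 32 for 3D against 2D. They ran from 4 to 16 for DENND5A-KD and 2 to 6 for AVL9-KD at day 0, 3 to 6 and 19 to 31 in 2D culture, 5 to 7 and 18 to 25 for 2D day 4 against day 0, 1 to 7 for the AVL9-KD interaction, and 1 to 4 and 3 to 15 for DENND5A-KD against AVL9-KD at day 0 and in 2D culture. They were 0 throughout for 24 h, the DENND5A-KD interaction and DENND5A-KD day 7. Where a group was left with 1 library, it was assumed to vary like the others.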

Other observations

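DENND5A-KD line 2 was higher than line 1 for most genes of the whole library, 82.5% at day 0, 77.8% in 2D culture at day 4 and 63.6% at day 7, and for 31, 31 and 33 of the 35 interferon-stimulated genes. AVL9-KD line 1 was higher than line 4 for 12 of the 35 in 2D culture at day 4, among them IDO1, IRF1, PSMB8, TAP1 and IFIT2, and for 52.1% of all genes, while line 4 was higher for MX1, RSAD2, CMPK2, DHX58 and DDX58. These genes were picked out after their values were seen.

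IFI6, a small mitochondrial interferon-stimulated protein of the pathway list, was 9.27 FPKM in 1 AVL9-KD 2D library and 0.253 in the other, and at most 0.350 in any other library, so it did not reach the filter. IFNK, an epithelial type I interferon, was 4.43 and 5.62 FPKM in the DENND5A-KD lines at day 0, 11.1 and 2.77 in the AVL9-KD lines and 0.542 to 2.74 in wild type. It was called higher in AVL9-KD (1.47 ± 0.44, limma adjusted p 0.0273) and not in DENND5A-KD (1.30 ± 0.44, adjusted p 0.108), and the difference between the knockdowns was −0.17 (adjusted p 0.888). IFNE, which rose in cysts, was lower in the DENND5A-KD monolayers than in wild-type ones, at 0.631 and 0.690 FPKM against 1.06 to 2.02.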
